A study of Odorrana tormota with 4 samples.

Results

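Genes that build and move cilia were followed in brain transcriptomes of adult *Odorrana tormota*, a frog whose males hear ultrasound, to ask whether the ciliary programme differed between the sexes. The genes were the unigenes (assembled transcripts) whose best Swiss-Prot match carried a symbol beginning with DNAH, DNAI, DNAAF, IFT, TEKT, CFAP, RSPH or BBS and a digit, or the symbol FOXJ1, SPAG6, SPAG17 or HYDIN. Unigenes whose best match in the non-redundant protein database (NR) was a chicken (Gallus) or turkey (Meleagris) protein were left out. This left 107 unigenes of 49 genes, among 17058 gene symbols and 197684 unigenes in the whole table. No unigene carried the exact symbol FOXJ1, and none carried a CFAP symbol with a description. The study had 2 female pools, F1 and F2, each of brains from 2 females, and 2 male pools, M1 and M2, each of brains from 4 males. All frogs were wild-caught untreated adults, so pool size and sex cannot be told apart. Each pool gave a single library. The p-values per gene rest only on the spread between the 2 pools of a sex, in that gene and in other genes of similar level.

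Motile cilia beat because axonemal dyneins slide the outer microtubule doublets against each other, while radial spokes and the central apparatus coordinate the stroke and tektins stiffen the doublets. In the vertebrate brain they stand on ependymal cells, choroid plexus and the subcommissural organ, where they move cerebrospinal fluid. Intraflagellar transport (IFT) trains carry cargo along motile and primary cilia alike, and the BBSome, a complex of Bardet-Biedl proteins, moves membrane proteins in and out of the cilium. The 49 genes were therefore read as 29 motile cilium genes (dynein chains, assembly factors, radial spoke, central apparatus and tektin genes) and 20 general cilium genes (IFT and BBS genes), since neurons and glia also carry primary cilia.

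No difference between the sexes was detectable for any ciliary gene at the adjusted threshold. Of the 49 genes, 44 passed the filter of at least 1 FPKM (fragments mapped, scaled for transcript length and library size) in at least 2 pools, 25 of them motile and 19 general. None of the 44 differed between females and males at an adjusted p under 0.05 in limma's test on log2(FPKM + 0.5), and the smallest adjusted p among them was 0.312. No gene in the table did either (0% of 12017 tested), where the smallest adjusted p was 0.0513, so the absence of calls was not particular to the ciliary genes. At an unadjusted p under 0.05, 2 of the 44 differed, against 12.5% of all genes. With 0.5 FPKM added to each sex mean, none of the 44 was more than 2-fold apart, nor more than 1.5-fold, a scale that understates the fold of low genes. Over all genes tested, 1.93% were over 2-fold higher in females and 4.23% over 2-fold higher in males. The share of all genes over 1.5-fold apart was not counted. The 95% confidence interval of the difference stayed within 2-fold either way for 33 of the 44 genes, 17 motile and 16 general and reached past 2-fold for the other 11.

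The median difference, female minus male on the log2 scale, was 0.05 for the 25 motile genes and 0.06 for the 19 general genes, beside 0.02 over all genes tested. Among the motile genes 13 differences were positive and 12 negative, and among the general genes 13 were positive and 6 negative. Over all 12017 genes tested, 6366 were positive and 5651 negative. Summed over genes, the motile set had 64.1 and 80.1 FPKM in the female pools, against 66.0 and 73.2 FPKM in the male pools. That gave 72.1 ± 11.3 FPKM in females and 69.6 ± 5.06 FPKM in males (SD, n = 2 each), with p = 1 in an exact two-sided permutation test of the pools, which with 2 against 2 cannot go below 0.333. The general set had 148 and 145 FPKM in the female pools, against 141 and 156 FPKM in the male pools, again with p = 1 in the exact permutation test.

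**Figure D1:**
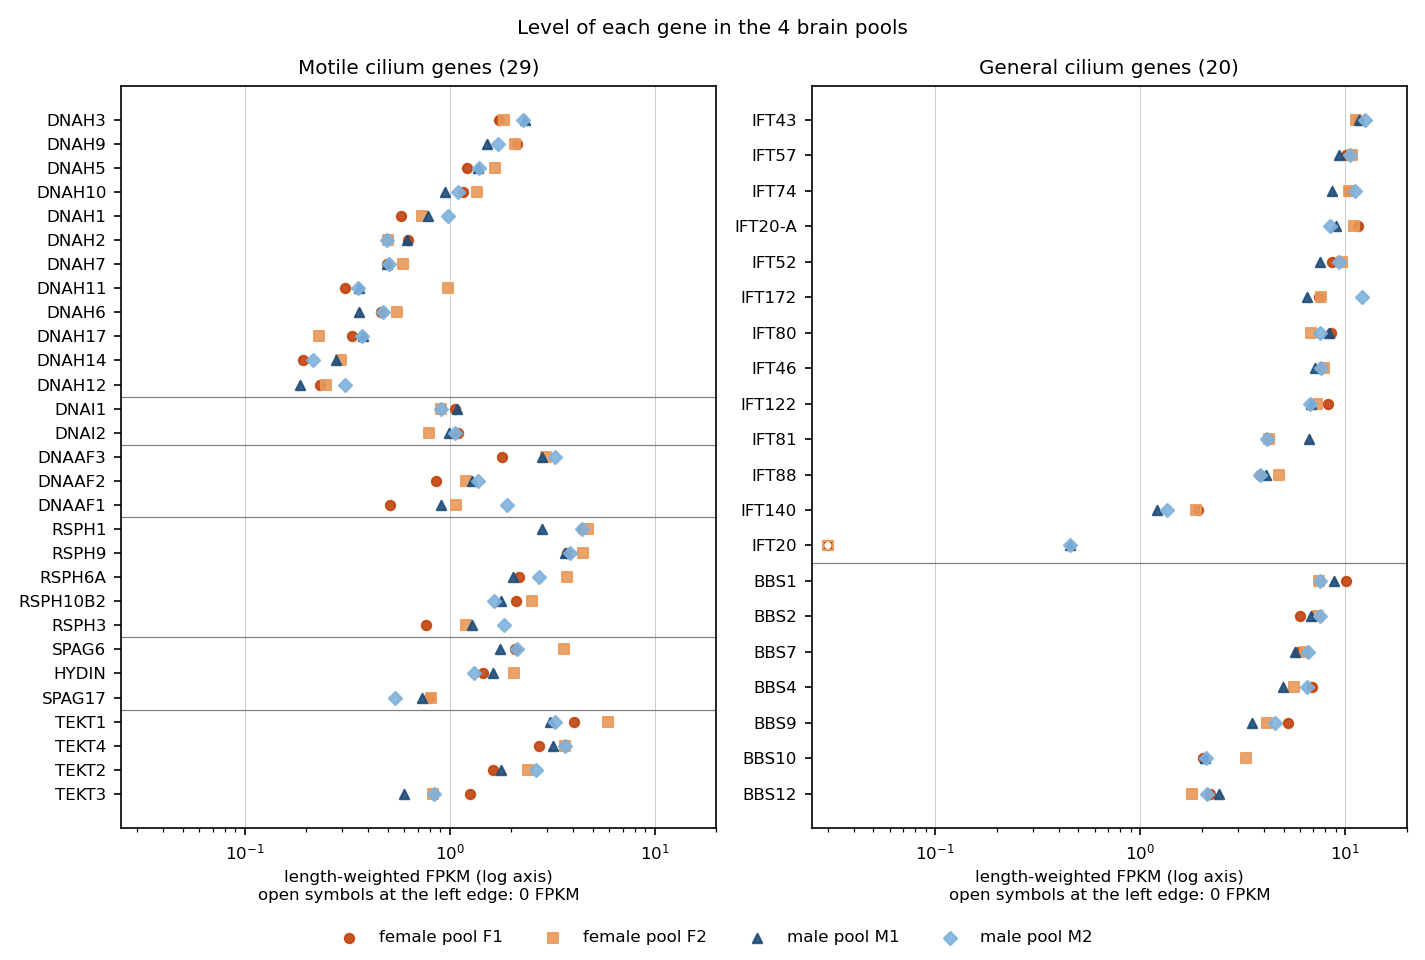
Length-weighted FPKM (log axis) of the 29 motile and 20 general cilium genes in each of the 4 brain pools, by role and, within a role, from high to low. Circles and squares are the female pools, triangles and diamonds the male pools. IFT20, a single bird-matched unigene listed apart from IFT20-A, is at 0 in both female pools. Motile genes lie around 1 FPKM and general genes around 7 FPKM.

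Levels of different genes were compared per length, by weighting the FPKM of a gene's unigenes by their length. On this scale the general genes were the higher set in every pool. Their median level over the 4 pools was 7.10 FPKM, against 1.18 FPKM for the motile genes and 6.22 FPKM for all genes tested. The general median exceeded the motile median 6.12-fold in F1 and 5.86-fold in F2, against 5.23-fold in M1 and 5.17-fold in M2. The levels ran from IFT43 at 11.7 FPKM down to IFT20 at 0.226 FPKM in the general set, and from RSPH1 at 4.10 FPKM to DNAH12 at 0.245 FPKM in the motile set. That IFT20 entry was a single unigene of 515 bases matched to a pelican protein. IFT20-A, matched to a Xenopus protein, was at 9.98 FPKM, and the next lowest general gene was IFT140 at 1.58 FPKM.

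Axonemal dynein heavy chains are the motors themselves, among the longest proteins of a vertebrate. They took 59 of the 107 unigenes, shared among 12 genes, and their median level was 0.542 FPKM. HYDIN, not a dynein but also a very long protein, had the longest ciliary unigene at 15252 bases, the 25th longest in the table. In all, 8 of the 131 unigenes over 10 kb belonged to the ciliary genes. DNAH paralogs share their motor domain, and several fragments had one paralog as the Swiss-Prot match and another as the NR match, so the split of FPKM among DNAH genes is uncertain.

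DNAH3, an inner arm heavy chain, was the motile gene with the smallest p. It had 9.58 and 9.49 FPKM in the female pools, against 13.6 and 12.4 FPKM in the male pools, and the male values were the higher ones throughout. The difference was -0.43 ± 0.13 (standard error) on the log2 scale, with an unadjusted p of 0.0231 and an adjusted p of 0.312 in limma's test. This excess in males sat in a single unigene of 5124 bases, matched to a Xenopus DNAH3-like protein, which had 6.63 and 6.49 FPKM in the female pools, against 10.1 and 9.65 FPKM in the male pools. The other 7 DNAH3 unigenes together had 2.95 and 3.0 FPKM in females and 3.52 and 2.75 FPKM in males, and there the sexes overlapped. At the level of unigenes, 40 ciliary unigenes passed the filter, among 51457 unigenes tested. The 51457 included unigenes with a chicken or turkey match and unigenes without a symbol. The adjustment thus ran over a different set than for genes. That DNAH3 fragment was the only one of the 40 at an unadjusted p under 0.05 in limma's fit. The share of all unigenes at that level was not counted. None of the 40 passed the adjusted threshold, the fragment itself having an adjusted p of 0.265.

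DNAH5 and DNAH9, both outer arm heavy chains, overlapped between the sexes when summed per gene. DNAH5 had 2.34 and 3.11 FPKM in the female pools, against 2.53 and 2.65 FPKM in the male pools. DNAH9 had 7.02 and 4.84 FPKM in females, against 4.30 and 5.44 FPKM in males. Its longest unigene, of 13669 bases, did separate them, with 2.65 and 2.73 FPKM in females and 1.96 and 2.23 FPKM in males. So did the gene with every bird match left out, an alternative chosen after seeing the data. It then had 5.51 and 3.62 FPKM in females and 2.96 and 3.02 FPKM in males. Neither version passed limma's test, with adjusted p of 0.684 and 0.489. Of all genes tested, 23.6% had both female pools above both male pools and 21% the reverse. DNAH10, an inner arm chain, had 1.17 and 1.36 FPKM in females and 0.946 and 1.10 FPKM in males, while DNAH1, another inner arm chain, had 0.856 and 0.770 FPKM in females and 1.23 and 1.12 FPKM in males. These 2 genes each separated the sexes, in opposite directions, by -0.35 ± 0.23 for DNAH1 and 0.21 ± 0.23 for DNAH10 (log2, standard error), and neither passed the test. DNAH1 reached the filter through the male pools only, so it could be tested only as separated in that direction. The remaining heavy chains in the test, DNAH2, DNAH6, DNAH7, DNAH11 and DNAH12, had overlapping pools, and the inner arm chains DNAH2, DNAH6 and DNAH7 lay between 1.02 and 1.93 FPKM in every pool. DNAH14 and DNAH17 were below the filter, DNAH14 with 0.765 and 0.909 FPKM in females and 0.606 and 0.252 FPKM in males, and DNAH17 with 0.515 and 0.354 FPKM in females and 1.47 and 0.874 FPKM in males.

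DNAH11, an outer arm chain known for left-right asymmetry in mouse and human, was uneven within females. It was singled out, as were DNAH12, IFT81 and IFT172 further on, after its values were seen. DNAH11 had 3.59 FPKM in F1 and 9.58 FPKM in F2, against 4.37 and 4.34 FPKM in the male pools. The rise in F2 was steepest in a unigene of 2434 bases, which had 0.378 FPKM in F1 but 3.89 FPKM in F2, beside 0.687 and 0.946 FPKM in the male pools. A neighbouring fragment of the same assembly component, which has no symbol but DNAH11 as its NR match, had the same shape with 0.344 FPKM in F1 and 5.20 FPKM in F2, against 0.768 and 0.554 FPKM in the male pools. Across the other 13 DNAH11 unigenes the sums were 3.21 and 5.69 FPKM in females, against 3.68 and 3.40 FPKM in males. Without F1, DNAH11 was the single ciliary gene over 2-fold apart, 2.08-fold higher in the remaining female pool with 0.5 FPKM added to each mean.

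**Figure D2:**
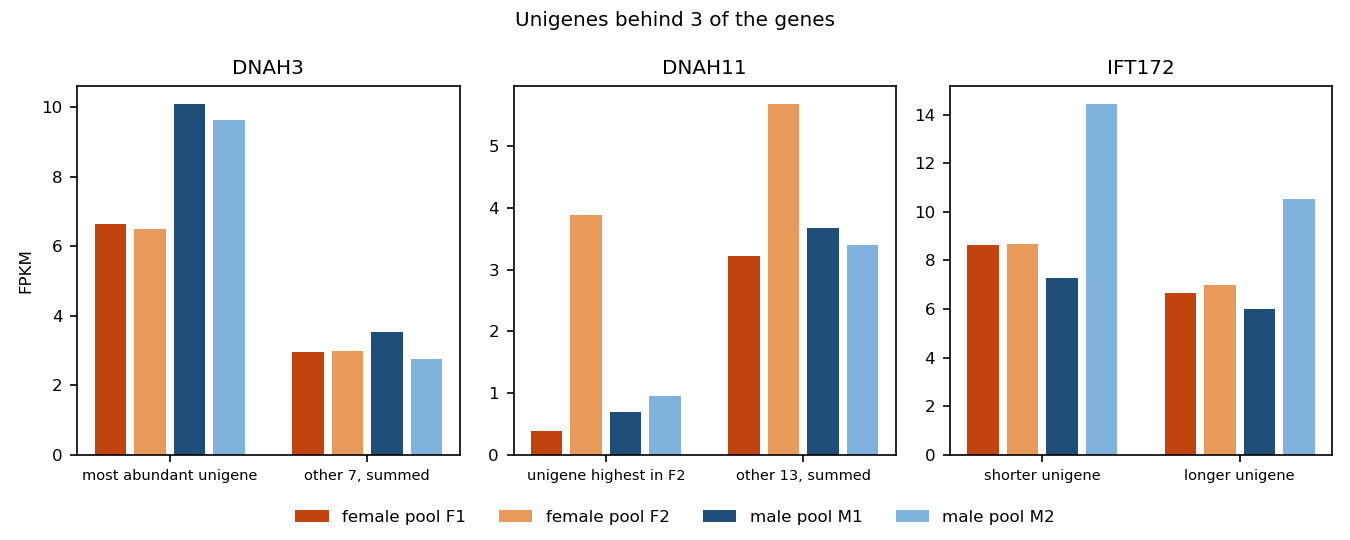
FPKM of the unigenes behind DNAH3, DNAH11 and IFT172 in the 4 pools; each panel has its own axis from 0 in FPKM. The male excess of DNAH3 is in its most abundant unigene (10.1 and 9.65 FPKM in males), the DNAH11 rise is in F2 (3.89 FPKM), and both IFT172 unigenes are highest in M2.

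The outer arm intermediate chains DNAI1 and DNAI2 anchor heavy chains to the doublet. DNAI1 had 1.65 and 1.38 FPKM in the female pools, against 1.68 and 1.52 FPKM in the male pools, and DNAI2 had 1.10 and 0.793 FPKM in females, against 0.991 and 1.07 FPKM in males. Both pairs overlapped. The cytoplasmic factors that preassemble dynein arms, DNAAF1, DNAAF2 and DNAAF3, had negative differences of -0.55 ± 0.40, -0.27 ± 0.25 and -0.32 ± 0.27 (log2, standard error), none of which passed the test. DNAAF1 varied as much within a sex as between them, with 0.514 and 1.07 FPKM in females and 0.912 and 1.91 FPKM in males. DNAAF2 had 0.854 and 1.2 FPKM in females and 1.29 and 1.38 FPKM in males, and DNAAF3 had 1.81 and 2.96 FPKM in females and 2.83 and 3.25 FPKM in males. Only DNAAF2 of the 3 kept the sexes apart.

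Radial spoke genes were the highest motile group together with the tektins. RSPH1, a spoke head protein, had 4.44 and 4.75 FPKM in the female pools, against 2.82 and 4.41 FPKM in the male pools. RSPH9, another spoke head protein, had 3.74 and 4.48 FPKM in females, against 3.64 and 3.85 FPKM in males. RSPH10B2 had 2.10 and 2.51 FPKM in females and 1.79 and 1.64 FPKM in males. These 3 genes and RSPH6A, with 2.19 and 3.74 FPKM in females and 2.03 and 2.74 FPKM in males, had positive differences of 0.11 to 0.34 on the log2 scale. RSPH3, a spoke stalk protein, lay on the other side, at 0.766 and 1.2 FPKM in females and 1.29 and 1.84 FPKM in males, a difference of -0.48 ± 0.29 with limma's adjusted p of 0.565. The radial spoke genes did not share a direction, and none passed the test.

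The central apparatus genes govern the beat through projections on the central microtubules. HYDIN had 1.46 and 2.07 FPKM in the female pools, against 1.62 and 1.32 FPKM in the male pools. SPAG6 had 2.09 and 3.59 FPKM in females, against 1.77 and 2.13 FPKM in males, a difference of 0.42 ± 0.30 (log2, standard error) that rested on F2. SPAG17, at 0.791 and 0.814 FPKM in females and 0.732 and 0.542 FPKM in males, stayed under the filter in every pool. The sexes did not overlap for SPAG17, but overlapped for HYDIN and SPAG6.

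Among the tektins, TEKT1 had the largest positive difference of the 44 genes. It had 4.02 and 5.95 FPKM in the female pools, against 3.08 and 3.26 FPKM in the male pools, so that both female pools lay above both male pools. The difference was 0.56 ± 0.24 on the log2 scale, with a 95% interval from -0.07 to 1.19 and, in limma's test, an unadjusted p of 0.0710 and an adjusted p of 0.436. TEKT2 had 1.63 and 2.40 FPKM in females and 1.79 and 2.63 FPKM in males, and TEKT4 had 2.73 and 3.64 FPKM in females and 3.20 and 3.66 FPKM in males. TEKT3 had 1.26 and 0.827 FPKM in females and 0.598 and 0.839 FPKM in males and was not tested. TEKT2, TEKT3 and TEKT4 overlapped between the sexes.

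**Figure D3:**
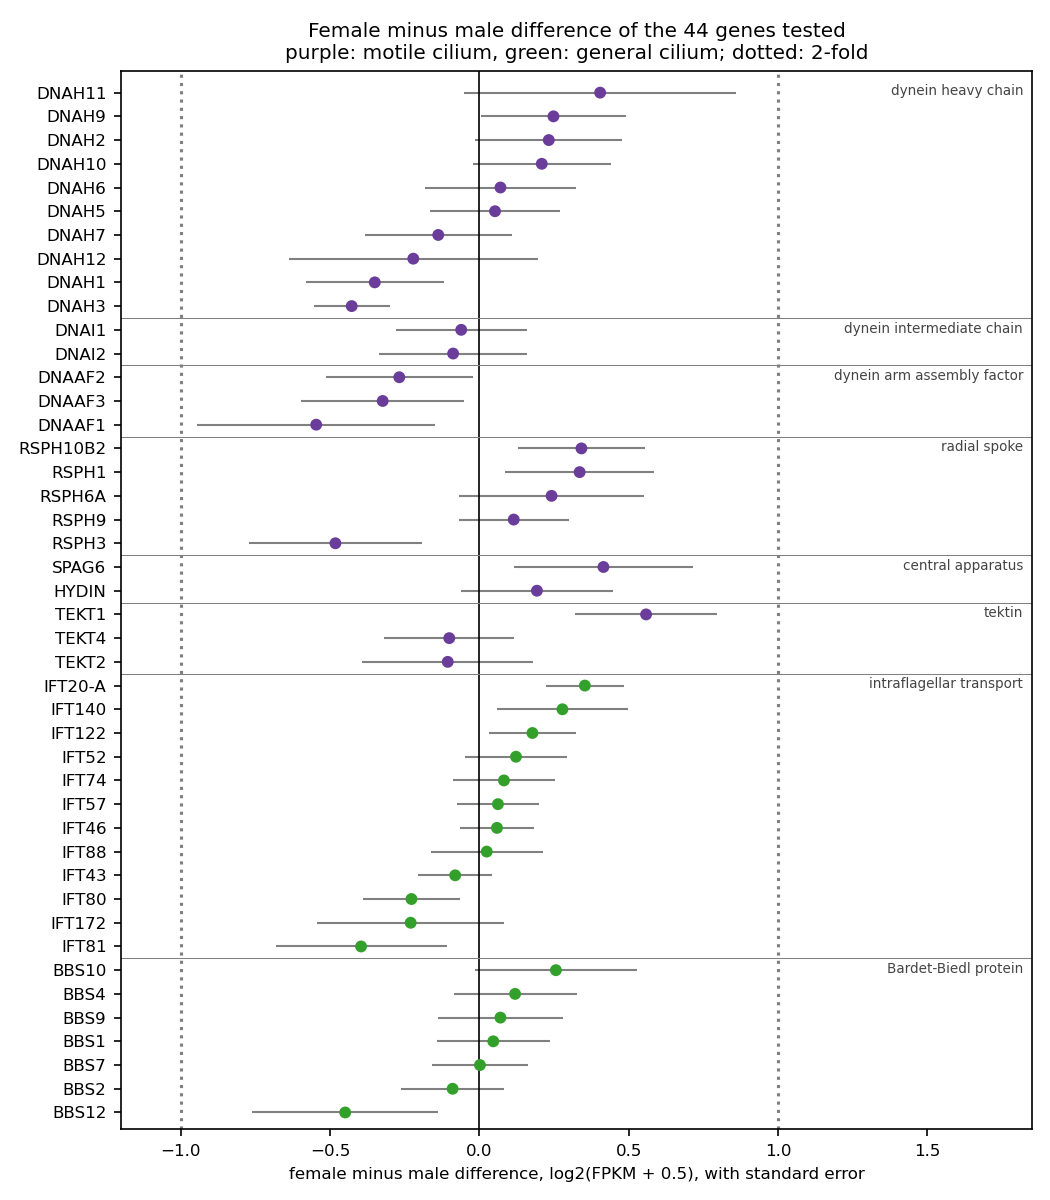
Female minus male difference of each of the 44 genes tested on the log2(FPKM + 0.5) scale (points) with its standard error (bars), by role; positive values are higher in females and dotted lines mark 2-fold. The points run from -0.55 for DNAAF1 to 0.56 for TEKT1, and no point reaches 2-fold.

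IFT trains consist of complex B, which takes cargo to the tip, and complex A, which serves the way back. None of the complex B genes passed the test. IFT57 had 10.0 and 10.7 FPKM in the female pools, against 9.36 and 10.5 FPKM in the male pools, and IFT74, which binds tubulin together with IFT81, had 10.4 and 10.4 FPKM in females and 8.62 and 11.1 FPKM in males. IFT46, IFT52 and IFT88 had differences of 0.02 to 0.12 on the log2 scale. IFT20-A, named after the Xenopus gene and placed in complex B, was the general gene with the smallest p. It had 11.5 and 11 FPKM in the female pools, against 9.01 and 8.40 FPKM in the male pools, and every female value was above every male value. The difference was 0.35 ± 0.13 on the log2 scale, with an unadjusted p of 0.0458 and an adjusted p of 0.388 in limma's test. A separate unigene named IFT20, matched to a pelican protein, had 0 FPKM in each female pool, against 0.452 and 0.454 FPKM in the male pools.

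Of the complex A genes, IFT43 had 11.6 and 11.2 FPKM in the female pools, against 11.7 and 12.5 FPKM in the male pools. IFT122 had 8.20 and 7.31 FPKM in females and 6.84 and 6.73 FPKM in males, and IFT140 had 2.11 and 2.06 FPKM in females and 1.45 and 1.83 FPKM in males. None passed the test. The pools of the 2 sexes did not overlap for any of them, but IFT43 was higher in males and IFT122 and IFT140 in females. The IFT43 pools were set apart only by 11.58 FPKM in F1 against 11.66 FPKM in M1. Both female pools lay above both male pools in 23.6% of all genes tested, and the reverse held in 21%.

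IFT172, a complex B protein of the train's periphery, differed most within males. It had 15.3 and 15.7 FPKM in the female pools, against 13.3 FPKM in M1 and 25 FPKM in M2. Both of its unigenes followed this order, the shorter with 8.62 and 8.67 FPKM in females, 7.27 FPKM in M1 and 14.5 FPKM in M2, and the longer with 6.68 and 6.99 FPKM in females, 6.02 FPKM in M1 and 10.5 FPKM in M2. IFT81 had the opposite order within males, at 4.99 and 4.98 FPKM in females, 8.84 FPKM in M1 and 5.08 FPKM in M2. In its longer unigene the values were 4.99 and 4.98 FPKM in females, against 7.58 and 4.83 FPKM in males, and there the sexes overlapped. Its other unigene, a bird-matched fragment of 442 bases, was at 0 in both female pools, against 1.26 and 0.251 FPKM in the male pools. Each of these 2 genes fell under an unadjusted p of 0.05 only when the male pool on the female side was left out.

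The BBSome subunits BBS1, BBS2, BBS4, BBS7 and BBS9 overlapped between the sexes. BBS1 had 11.9 and 8.80 FPKM in the female pools, against 10.4 and 9.43 FPKM in the male pools, and BBS7 had 5.91 and 6.39 FPKM in females, against 5.71 and 6.59 FPKM in males. BBS2 had 6.02 and 7.39 FPKM in females and 6.78 and 7.51 FPKM in males, and BBS4 had 6.86 and 5.62 FPKM in females and 4.97 and 6.48 FPKM in males. The differences of these 5 subunits ran from -0.09 for BBS2 to 0.12 for BBS4 on the log2 scale. BBS10 and BBS12, chaperonin-like proteins that help to assemble the BBSome, were lower, at a length-weighted 2.36 and 2.13 FPKM. BBS12 had a difference of -0.45 ± 0.31, but its longer unigene had 2.50 and 2.05 FPKM in females and 2.50 and 2.44 FPKM in males, and the rest came from a fragment of 333 bases present in M1 alone at 1.86 FPKM.

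In 15 of the 44 genes the pools of the 2 sexes did not overlap. Both female pools lay above both male pools in 8 genes, 4 motile (DNAH10, RSPH1, RSPH10B2, TEKT1) and 4 general (IFT122, IFT140, IFT20-A, IFT46), against 23.6% of all genes tested. In 7 genes, DNAAF2, DNAH1, DNAH3, RSPH3, IFT43, IFT80 and IFT81, the male pools were both above the female ones, against 21% of all genes tested. For IFT80 and IFT81 this rested on bird-matched fragments at 0 in both female pools, and their longest unigenes overlapped. DNAH1 reached the filter through the male pools only. With every bird match left out, DNAH7, DNAH9 and DNAH12 also had both female pools above both male pools. Of these, DNAH7 and DNAH12 then reached the filter through the female pools only. At an unadjusted p under 0.05 the single gene higher in females was IFT20-A, against 5.67% of all genes, and the single gene higher in males was DNAH3, against 6.86%.

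Within females, the motile genes as a set lay higher in F2 than in F1, and the general genes did not. The median of F2 minus F1 was 0.28 on the log2 scale for the 25 motile genes, of which 20 were higher in F2, and 0.00 for the 19 general genes, of which 9 were higher in F2. Of all 12017 genes tested, 6013 were higher in F2. The median of M2 minus M1 was 0.15 for the motile genes, of which 18 were higher in M2. For the general genes it was 0.10, with 13 higher in M2, and of all genes tested 6140 were higher in M2. Over all genes tested both within-sex medians were under 0.01 in size. With 2 pools a sex, these shifts between pools had no test. More than 1.5-fold separated F2 from F1 in 4 motile genes, DNAAF1, DNAH11, RSPH6A and SPAG6, all higher in F2 (10.9% of all genes tested), and in no ciliary gene was F1 the higher by that margin (4.79% of all genes). M2 was over 1.5-fold above M1 in DNAAF1, DNAH12 and IFT172 (4.57% of all genes), and M1 over 1.5-fold above M2 in BBS12 and IFT81 (7.5% of all genes). For the motile genes the within-female median was thus larger than the median difference between the sexes, 0.05. The within-female value sets 1 library against 1 and the sex value means of 2 pools, so their sizes are not directly comparable.

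The pools also differed in markers of other tissues. The mucosa and skin epithelium list, 21 of whose 27 genes were found, summed to 58.9 FPKM in F1 and 275 FPKM in F2, against 467 FPKM in M1 and 92.5 FPKM in M2; TFF1 was at 0 in all 4 pools and MUC5AC in all but M1. The pituitary list, 8 of 11 found, summed to 84.7 and 6683 FPKM in the female pools, against 1610 and 1088 FPKM in the male pools. Skeletal muscle genes, 8 of 10 found, summed to 3.84 and 424 FPKM in females and 9.95 and 26.0 FPKM in males, and TNNT3 was at 0 in both female pools. The part of these tissues, or of the brain cells that carry motile cilia, in the higher motile values of F2 was not tested. In pooled tissue, fewer ciliated cells and less ciliary RNA per cell cannot be told apart. Neuronal genes, 13 of 14 found, summed to 2687 and 2203 FPKM in the female pools, against 2644 and 2651 FPKM in the male pools. SNAP25, SYP and MAP2 supplied most of this sum and were abundant in all 4 pools. Not every symbol of the list was. ELAVL4 was at 0 in both female pools, against 0.619 and 0.617 FPKM in males. TUBB3 had 0.207 and 0.141 FPKM in females and 0.459 and 1.73 FPKM in males. ENO2 had 0.289 and 0.510 FPKM in females, against 2.83 and 5.93 FPKM in males. The lists took exact symbols, so unigenes under a variant symbol, such as IFT20-A beside IFT20, were not counted. These low values therefore need not be the level of the whole gene, which was not tested.

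Brain tissues in which motile cilia occur were described through lists of marker genes. The first list joins ependyma with radial glia, so its sum does not measure ciliated cells alone. Of the ependyma and radial glia list, 8 of 13 genes were found, with a sum of 1494 and 1535 FPKM in the female pools, against 981 and 1108 FPKM in the male pools. Most of it came from GLUL, the glutamine synthetase of glia, at 1005 and 982 FPKM in females and 556 and 619 FPKM in males (limma, unadjusted p = 0.00363, adjusted p = 0.111). GLUL was the single gene of the 7 tested at an unadjusted p under 0.05, and their median difference was 0.28 on the log2 scale. FABP7, VIM and S100B had negative differences of -0.15, -0.60 and -0.69. S100B reached the filter through the male pools only, so it could be tested only as higher in males. CRYAB had the largest difference, 2.11, but was uneven within females. It had 7.91 FPKM in F1 and 94.7 FPKM in F2, against 4.92 and 7.40 FPKM in males. The choroid plexus list, 12 of 15 found, summed to 151 and 143 FPKM in females, against 124 and 136 FPKM in males, with a median of 0.47 over 8 tested genes. Most of it came from ENPP2 and SLC4A10. ENPP2 had 56.8 and 54.6 FPKM in females, against 52.9 and 57.7 FPKM in males, and overlapped between the sexes. SLC4A10 had 54.5 and 39.4 FPKM in females, against 31.5 and 34.8 FPKM in males. CLIC6, FOLR1, KL, LMX1A, OTX2, SLC13A4 and SLC4A5 were higher in F2 than in F1, FOLR1 at 1.90 against 0.210 FPKM. ENPP2, HTR2C, PRLR, SLC4A10 and TTR were lower in F2. FOLR1, KL, LMX1A and SLC13A4 were below the filter. In that list TTR, transthyretin, had 6.5 and 5.92 FPKM in females, against 0.107 and 0.209 FPKM in males. TTR reached the filter through the female pools only, so it could be tested, and enter the list's median of 0.47, only as higher in females. It was higher in females at an unadjusted p under 0.05, with an adjusted p of 0.0513 in limma's test, equal to the smallest in the table. HBB, a hemoglobin gene outside this list, had the same adjusted p, at 256 and 131 FPKM in females, against 1.18 and 2.19 FPKM in males. Whether TTR marks choroid plexus in this frog was not tested. OTX2, a transcription factor, was higher in males at an unadjusted p under 0.05 in limma's test. It had 15.2 and 20.5 FPKM in females, against 23.2 and 27.2 FPKM in males. The 5 genes of the subcommissural organ and floor plate had a median of 0.06 and none at an unadjusted p under 0.05. SSPO, the spondin of that organ, had 2.33 and 4.02 FPKM in females and 1.96 and 0.668 FPKM in males, while SHH, a floor plate signal, had 1.96 and 2.68 FPKM in females and 3.27 and 3.62 FPKM in males. None of these markers passed the adjusted threshold.

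The other genes of the ciliary pathways were described from lists of symbols outside the rule. Of 41 tested genes of the axoneme and dynein arms, LRRC6, a dynein assembly factor, was higher in females at an unadjusted p under 0.05, none was higher in males, and the median difference was 0.11 on the log2 scale. Of 7 IFT proteins under other names, such as CLUAP1, WDR19 and WDR35, none differed at that level, with a median of 0.08. HSPB11 alone among them was uneven, with 5.12 FPKM in F1 but 50.2 FPKM in F2, against 3.84 and 3.50 FPKM in the male pools. The 10 kinesin and dynein motor genes of the trains, the 6 BBSome partners and the 26 transition zone genes had medians of 0.06, -0.01 and 0.08, with none at an unadjusted p under 0.05. Among 8 genes of multiciliated cell fate, E2F5 was higher in males at that level, with 1.01 and 1.65 FPKM in the female pools, against 2.95 and 2.35 FPKM in the male pools (limma, unadjusted p = 0.0374, adjusted p = 0.363), and the median was 0.06.

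Most of the ciliary unigenes that the symbols would have taken were not counted, because their best NR match was chicken or turkey. These were 114 of 221 unigenes, 88 motile and 26 general, from 43 genes, and 112 of them were at 0 in both female pools. The table held 5596 unigenes with a chicken or turkey match. How many of those were at 0 in both female pools was not counted, so the pattern cannot be called particular to ciliary genes. Their summed level was 0 and 0.0782 FPKM in the female pools, against 67.3 and 68.0 FPKM in the male pools. DNAH7 contributed 11.8 and 8.97 FPKM and DNAH8, an outer arm chain known from sperm, 6.52 and 5.97 FPKM in the male pools, with 0 in both female pools. With these unigenes kept, the motile sum was 64.1 and 80.2 FPKM in females, against 123 and 128 FPKM in males, a ratio of 0.575, and the general sum was 148 and 145 FPKM in females, against 151 and 169 FPKM in males, a ratio of 0.915. The exact permutation test gave its smallest possible p of 0.333 for each.

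With them counted, more ciliary genes lay higher in males. Of 49 genes tested, 11 were then over 2-fold higher in males (5.86% of all genes) and none over 2-fold higher in females (1.84% of all genes). In limma's test, 16 had an unadjusted p under 0.05 (14.7% of all genes), 15 of them higher in males, and 5 passed the adjusted threshold (3.2% of all genes). The 5 were DNAH8, DNAH7, DNAH17, DNAH3 and TEKT5, all higher in males, with adjusted p of 0.0294 to 0.0386. DNAH8 and TEKT5 rested on such unigenes alone. DNAH1, DNAH8, DNAH17, SPAG17 and TEKT5, all among the genes over 2-fold higher in males, reached the filter through the male pools only. They could therefore enter the test only as higher in males. SPAG17 had 0.791 and 0.814 FPKM in females and 3.82 and 2.56 FPKM in males when they were kept.

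**Figure D4:**
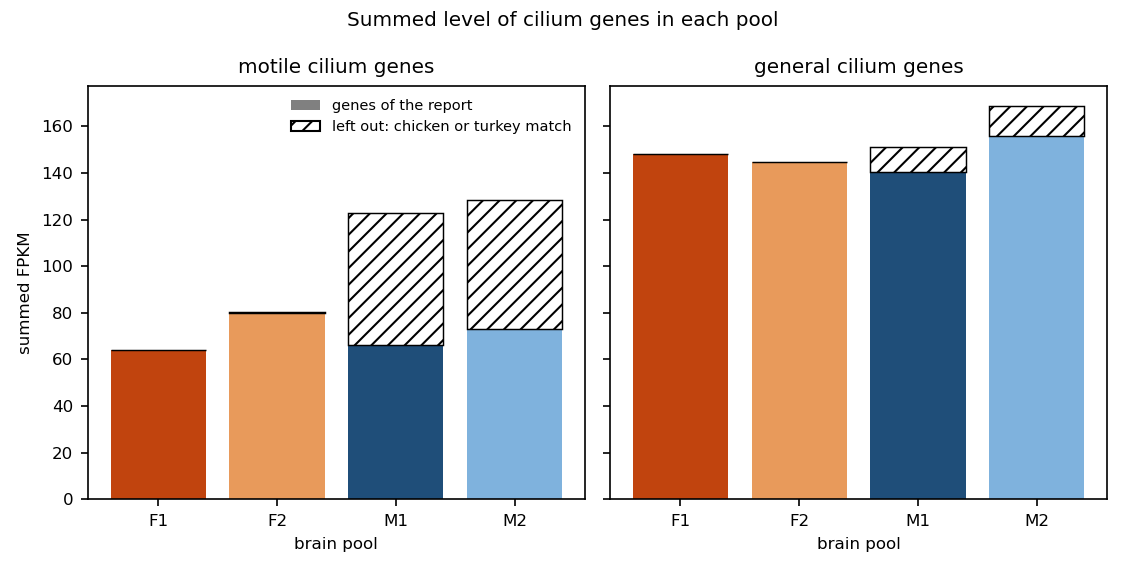
Summed FPKM of the motile (left) and general (right) cilium genes in each pool; filled bars are the genes as counted and hatched parts the unigenes left out for a chicken or turkey match. The filled motile bars run from 64.1 to 80.1 FPKM, and the hatched parts are at or near 0 in the female pools and above 55 FPKM in each male pool.

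Unigenes matched to other birds were kept by the rule. Of the 107 ciliary unigenes, 79 had an amphibian NR match, 18 a match to another bird and 10 a match to another animal, and 14 of the 18 were at 0 in both female pools. The same share over all unigenes matched to other birds was not counted. The 18 summed to 10.1 and 9.90 FPKM in the female pools, against 15.2 and 23.5 FPKM in the male pools. The 79 with an amphibian match summed to 186 and 202 FPKM in the female pools, against 178 and 193 FPKM in the male pools. DNAH12 had 1.36 and 1.56 FPKM in females, against 1.07 and 2.83 FPKM in males, and its 3 bird-matched fragments supplied 0.601 and 2.22 FPKM of the male values. The other 4 fragments had 1.36 and 1.56 FPKM in females, against 0.469 and 0.618 FPKM in males. With every bird match left out, an alternative chosen after seeing the data, the difference was 0.91 ± 0.25 (log2, standard error). Limma gave it an unadjusted p of 0.0181 and an adjusted p of 0.314. In that alternative DNAH12 reached the filter through the female pools only, so it could be tested only as higher in females. IFT80 had 9.88 and 7.89 FPKM in the female pools, against 10.3 and 10.6 FPKM in the male pools, but its longest unigene, matched to a turtle, had 9.88 and 7.89 FPKM in females and 9.64 and 8.57 FPKM in males, and its 2 bird-matched fragments were at 0 in both female pools.

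The annotation shared by the ciliary unigenes followed the dyneins. All 61 unigenes with a KEGG pathway term carried Huntington's disease, 60 of them dynein chains and the other IFT57, and they made up 61 of the 671 unigenes with that term in the table. Gene Ontology terms were given for 101 of the 107 unigenes, among them microtubule motor activity for 61, cilium for 33, cilium movement for 22 and determination of left/right symmetry for 19.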

How the data were processed

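RNA from pooled brains of adult *O. tormota* was sequenced as 2 female pools of 2 frogs each and 2 male pools of 4 frogs each. The authors assembled reads de novo with Trinity and TGICL after trimming, annotated unigenes against NR, Swiss-Prot, KOG, KEGG and Gene Ontology, and deposited FPKM per unigene. Their methods name Bowtie2, while the submitters' processing notes name cutadapt, FastQC, Salmon and edgeR, so the tool behind the values is unsettled. FPKM normalizes for length and depth, and read counts were not recovered from it, so the depth per unigene is unknown and no counting interval is given. The deposited FPKM summed to between 669260 and 717478 per pool.

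The symbol was taken from the Swiss-Prot description, FPKM was summed per gene, and log2(FPKM + 0.5) was fitted with limma 3.58.1 (R 4.3.3; trended prior, 2 residual and 2.57 prior degrees of freedom, Benjamini-Hochberg adjustment) over the 12017 genes at 1 FPKM or more in at least 2 pools. The script was tested on simulated data. A count model such as DEGseq was not run. FOXJ1, HYDIN, SPAG6 and SPAG17, up to 4 genes per role with the highest length-weighted FPKM, and the 5 genes per direction with the smallest p were named, with others by counts. The genes and lists were chosen with earlier results of these data known. Alternatives were other pseudocounts, filters, scalings, priors, per-gene summaries, annotation rules, a replicate block and leaving out each pool. A blank line of the table was left out. No sequences were used.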

Additional observations from a re-analysis of the deposited data

Results flagged for a closer look

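The unigenes left out for a chicken or turkey match carried a signal in the male pools that was nearly absent from the female pools. Their summed ciliary FPKM was 0 in F1 and 0.0782 in F2, against 67.3 in M1 and 68.0 in M2. Of the 114 unigenes, 108 were above 0 in M1 and 107 in M2. The same shares over all 5596 unigenes with a chicken or turkey match were not counted. Groups of 2 pools were not tested for a library that stands apart.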

How the results depend on the processing

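No ciliary gene passed the adjusted threshold under any alternative except keeping chicken and turkey matches, where 5 did. Of these, DNAH8, DNAH17 and TEKT5 reached the filter through the male pools only. That alternative also gave 16 genes at an unadjusted p under 0.05, 11 over 2-fold apart, medians of -0.62 (motile) and -0.077 (general), a gap of -0.55 and female-to-male ratios of 0.575 (motile) and 0.915 (general). The 2 genes at an unadjusted p under 0.05 became 4 with no filter, 1 under median-ratio scaling, quantile normalization, no trend, length-weighted means, the longest unigene or amphibian matches only, and 3 with every bird match left out, an alternative chosen after seeing the data. DNAH12, among the 3 with every bird match left out, reached the filter through the female pools only. A mean of at least 5 FPKM gave a motile median of 0.25 and a gap of 0.20. Amphibian matches gave a general ratio of 1.04. Leaving the CFAP genes out changed nothing, since the rule found none. The causes were not tested.

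Leaving out each pool in turn, with the lone pool taken to vary like the other sex's pools, gave 0 to 2 genes at an unadjusted p under 0.05, 0 to 1 over 2-fold apart, motile medians of -0.08 to 0.19, general medians of -0.025 to 0.14, gaps of -0.09 to 0.11, motile ratios of 0.921 to 1.15 and general ratios of 0.938 to 1.04. The highest motile median came without M2 and the lowest without F2.

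The pools share only replicate numbers. With the numbers as a replicate block, 0 genes had an unadjusted p under 0.05. Deviations of same-numbered pools correlated at -0.25 over the genes tested, and with the crossed pairing, added after seeing the data, 1 ciliary gene had an unadjusted p under 0.05 and 40 genes of the table passed the adjusted threshold. Over the whole table, 0 genes passed in the fit as reported, against 315 with 0.1 added before the logarithm, 298 without a trend, 28 with a robust prior, 55 with length-weighted means, 76 with the longest unigene, 393 with chicken and turkey matches, and 1 and 2 without F2 and M2.

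Some differences changed sign. With chicken and turkey matches kept, BBS4 was -0.13, BBS7 -0.10, DNAH10 -1.04, DNAH5 -0.25, HYDIN -0.62, IFT57 -0.0024, IFT74 -0.066, RSPH1 -0.19, RSPH9 -0.29 and SPAG6 -0.35. Quantile normalization gave BBS1 -0.0079, BBS7 -0.044, DNAI1 0.014 and DNAI2 0.31, median-ratio scaling gave BBS7 -0.024, and the longest unigene gave DNAH5 -0.015 and DNAI1 0.041. Leaving out a pool spanned 0 for BBS1 (-0.16 to 0.25), BBS2 (-0.23 to 0.047), BBS4 (-0.056 to 0.29), BBS7 (-0.093 to 0.097), DNAH5 (-0.12 to 0.22), DNAI1 (-0.16 to 0.034), DNAI2 (-0.12 to 0.065), HYDIN (-0.0018 to 0.39), IFT57 (-0.019 to 0.14), IFT74 (-0.094 to 0.26), RSPH6A (-0.087 to 0.57), RSPH9 (-0.0022 to 0.23), TEKT2 (-0.33 to 0.12), TEKT4 (-0.28 to 0.079), IFT172 (-0.67 without M1 to 0.21 without M2) and DNAH11 (-0.25 without F2 to 1.05 without F1).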

Other observations

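Several ciliary genes had no Swiss-Prot description and so no symbol for the rule, but had an entry name. Among these, chosen after their values were seen, CFAP53, a cilia- and flagella-associated protein, had 4.27 and 2.99 FPKM in the female pools, against 1.84 and 2.45 FPKM in the male pools, and CFAP52 had 2.88 and 2.73 FPKM in females, against 1.38 and 2.06 FPKM in males. The differences were 0.63 ± 0.26 and 0.59 ± 0.24 on the log2 scale, with limma's adjusted p of 0.422 and 0.424. CFAP20 had 28.5 and 30.7 FPKM in females and 31.0 and 29.9 FPKM in males. The IFT complex B genes IFT22 and IFT56 had 12.0 and 12.0 FPKM and 9.44 and 9.14 FPKM in females, against 10.8 and 8.02 FPKM and 6.53 and 9.82 FPKM in males. With the entry names added, 64 ciliary genes were tested, none passed the adjusted threshold and the motile median was 0.14.

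FOXJ1.2, a Xenopus-named relative of FOXJ1, the master regulator of motile cilia, had 2.84 and 3.88 FPKM in the female pools, against 1.61 and 1.83 FPKM in the male pools, a difference of 0.78 ± 0.23 with limma's unadjusted p of 0.0230 and adjusted p of 0.312. FOXJ1-B, also named after a Xenopus gene, had 0.695 and 1.18 FPKM in females and 0.896 and 1.29 FPKM in males. Its difference was -0.15 ± 0.30, with limma's unadjusted p of 0.633 and adjusted p of 0.875. FOXJ1.2 and FOXJ1-B thus lay in opposite directions, and neither passed the adjusted threshold.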
